A study of Mus musculus with 6 samples.

Results

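The genes described here are 9 that act in the breakdown of stored triglyceride in adipocytes, namely Pnpla2, Lipe, Mgll, Abhd5, Plin1, G0s2, Adrb3, Pde3b and Aqp7. They were chosen by name for their roles, with earlier results of these data known and with no threshold on their values, from the 45706 genes of the count table, and all 9 were among the 11440 genes that passed a filter on low counts. The study asked how loss of RBMS1, an RNA-binding protein, alters gene expression in adipocytes. RNA was sequenced from 3T3-L1 cells, a mouse embryo fibroblast line that turns into adipocytes, at day 7 of differentiation. There were 3 scrambled control cultures (genotype labelled WT) and 3 RBMS1 knockdown cultures (labelled RBMS1KD). The knockdown cells had received an Rbms1-specific shRNA by lentivirus and were selected with puromycin as stable lines. The control cells, though labelled WT, stably expressed a scrambled shRNA according to the study. Whether each culture came from a separate transduction is not given in the sources used here. All 6 cultures were differentiated with IBMX, insulin, dexamethasone and rosiglitazone, so that each of them had been exposed to an inhibitor of phosphodiesterases and to an agonist of PPARγ.

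Lipolysis releases fatty acids from the triglyceride of the lipid droplet in successive hydrolysis steps. Catecholamines act on β-adrenergic receptors, which raise cyclic AMP and activate protein kinase A. The kinase phosphorylates perilipin 1 on the droplet surface and hormone-sensitive lipase. Insulin opposes this through phosphodiesterase 3B, which degrades cyclic AMP. In mouse adipocytes the β3 receptor is the characteristic β-adrenergic subtype, and the expression of most of these genes rises during adipogenic differentiation.

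Total counts lay between 3142695 and 11073098 per library, lowest in scrambled control replicate 2, where genes derived from ribosomal RNA took 43.0% of the counts against 8.12% to 17.8% in the other libraries. Levels are given as CPM, the count relative to the library size after scaling by its TMM factor. A gene without a count in a single library could lie at up to 0.220 to 1.49 CPM (3 counts), a limit that covers counting error only. Rbms1 itself had 113, 101 and 99.4 CPM in the scrambled control replicates 1 to 3 and 49.0, 61.2 and 83.8 CPM in the RBMS1 knockdown replicates. Each knockdown culture was below each control, and the log2 fold change was -0.69 (SE 0.20, adjusted p = 0.185). With each library left out in turn it ranged from -0.92 to -0.52 (adjusted p 0.0708 to 0.454), and with library sizes alone it was -0.31 (adjusted p = 0.571). Of 19 alternatives Rbms1 was called in 1, the fit without RBMS1 knockdown replicate 3. These values come from edgeR's quasi-likelihood F test, used throughout, with p-values adjusted by the Benjamini-Hochberg method over all tested genes. A gene is referred to as called where this adjusted p did not exceed 0.1, the limit used in the Results of the study.

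In the RBMS1 knockdown cells 1 of the 9 lipolysis genes, the receptor gene Adrb3, was called, and it fell to 0.428 of the control level. Over all tested genes 1.22% were called and 0.909% were called as lower. The other genes did not pass the test, although 8 of the 9 had log2 fold changes below 0, against 49.6% of all tested genes, with G0s2 and Aqp7 turning above 0 when the libraries were scaled by their totals alone, which raised the median of all tested genes by 0.368. Their median log2 fold change was -0.41, where that of all tested genes was 0.0044. The groups did not overlap for Adrb3 and Pnpla2, that is for 2 of 9 genes, which was the case for 18.5% of all tested genes (9.55% with the knockdown lower). An unadjusted p under 0.05 was found for the same 2 genes, against 12.4% of all tested genes. Adrb3 was the 1 gene of the 9 called by DESeq2 (where 3.2% of tested genes were called), by limma-voom (1.01%), with edgeR's earlier (1.07%) or robust (1.47%) estimates, with RLE size factors (1.15%), without genes derived from ribosomal RNA (1.23%), without a filter on low counts (1.38%), with a filter of 1 CPM in 3 libraries (1.19%) and with the trend with GC content and length removed (1.39%). None of the 9 was called with library sizes alone (1.1% of tested genes called), with the medians per chromosome removed (0.638%) or with the replicate number as a block (0.341%), all by edgeR.

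**Figure D1:**
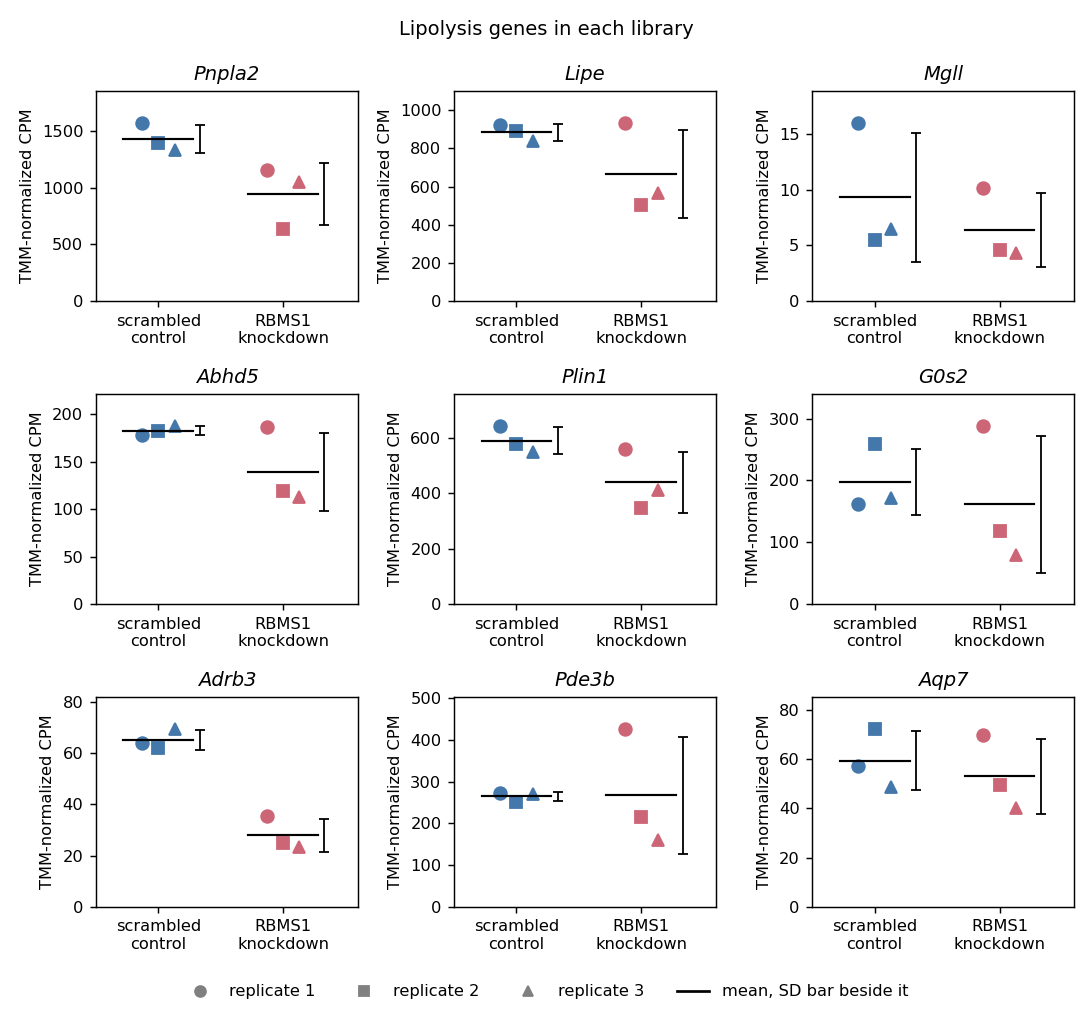
TMM-normalized CPM of each of the 9 genes (vertical axes, each from 0) in the 3 scrambled control and 3 RBMS1 knockdown libraries, 1 symbol per replicate number, with a line at the group mean and the SD (n = 3) as the bar beside it. RBMS1 knockdown replicate 1 is the highest knockdown library for all 9 genes, and the groups are apart for Pnpla2 and Adrb3.

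Pnpla2 (ENSMUSG00000025509) encodes adipose triglyceride lipase (ATGL), which removes the first fatty acid from triglyceride. The gene spans 141455198 to 141460743 on chromosome 7 (GRCm38, as are the positions that follow). Its levels were 1570, 1394 and 1329 CPM in scrambled control replicates 1, 2 and 3, and 1155, 638 and 1051 CPM in RBMS1 knockdown replicates 1, 2 and 3. Each knockdown library was below each control. The means were 1431 ± 124 CPM (SD, n = 3) in the control and 948 ± 273 CPM (SD, n = 3) in the knockdown. This gave a log2 fold change of -0.59 (SE 0.25) with an adjusted p of 0.37 from edgeR, so that the difference did not pass the test. With each library left out in turn the log2 fold change stayed between -0.75 and -0.36.

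Lipe (ENSMUSG00000003123, chromosome 7, 25379527 to 25398710) encodes hormone-sensitive lipase (HSL), which cleaves the diglyceride that ATGL leaves. It had 921, 894 and 837 CPM in the controls and 933, 501 and 567 CPM in the knockdown libraries. Knockdown replicate 1 was above all 3 controls and the other two knockdown libraries were below all of them. The log2 fold change was -0.41 (SE 0.24, adjusted p = 0.538 from edgeR). Mgll (ENSMUSG00000033174, chromosome 6, 88724412 to 88828360) encodes monoglyceride lipase, which frees the last fatty acid and glycerol. It was a low gene, with 100, 11 and 38 counts in the controls and 71, 39 and 59 counts in the knockdown libraries. These counts correspond to 15.99, 5.45 and 6.52 CPM and to 10.2, 4.55 and 4.32 CPM. The groups overlapped, and the log2 fold change of -0.61 (SE 0.47, adjusted p = 0.658 from edgeR) rested on scrambled control replicate 1, without which it was 0.058.

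Of the 3 genes for droplet proteins that govern ATGL, Abhd5 encodes its co-activator, also known as CGI-58. Abhd5 (ENSMUSG00000032540, chromosome 9, 122351608 to 122381524) had 178, 182 and 188 CPM in the controls, a spread of 4.83 CPM (SD, n = 3), and 187, 119 and 112 CPM in the knockdown libraries. Knockdown replicate 1 lay within the controls and the other two lay below them, and the log2 fold change was -0.39 (SE 0.20, adjusted p = 0.478 from edgeR). Plin1 (ENSMUSG00000030546, chromosome 7, 79720218 to 79732903) encodes perilipin 1, which holds ABHD5 at the droplet until protein kinase A phosphorylates it. Its levels were 644, 579 and 549 CPM in the controls and 561, 347 and 411 CPM in the knockdown libraries. Here too replicate 1 lay within the controls and the other two below them (log2 fold change -0.43, SE 0.20, adjusted p = 0.435 from edgeR). G0s2 (ENSMUSG00000009633, chromosome 1, 193272161 to 193273217) encodes a small protein that binds and inhibits ATGL. It had 161, 259 and 172 CPM in the controls and 288, 117 and 79.2 CPM in the knockdown libraries. Its knockdown libraries thus reached both above and below all controls, and the log2 fold change was -0.29 (SE 0.41, adjusted p = 0.829 from edgeR). Without RBMS1 knockdown replicate 3 it was 0.044. Lamb3, on the opposite strand, overlaps G0s2 and took 1031 counts against 6628 of G0s2 over the 6 libraries, and how strand was handled in the counting is not given in the sources used here.

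The promoter windows of Pnpla2, Plin1 and Abhd5 are shown because these genes of the ATGL reaction have a single RefSeq start and similar profiles over the libraries, Pearson's r of log2 CPM being 0.939 for Pnpla2 with Plin1, 0.905 for Abhd5 with Plin1 and 0.748 for Pnpla2 with Abhd5. G0s2, which also has a single start, is not shown, and its r was 0.876 with Abhd5, 0.695 with Plin1 and 0.459 with Pnpla2. These r are descriptions over 6 libraries that share their depth and preparation. The windows run from 250 bases before to 50 bases after the start (RefSeq, GRCm38.p6), 5′ to 3′ on the strand of the gene. They lie at chr7:141454938-141455237 (plus strand) for Pnpla2, chr7:79732727-79733026 (minus strand) for Plin1 and chr9:122351366-122351665 (plus strand) for Abhd5. Capitals mark exact matches, on either strand, to AGGTCA (half-site of PPARγ and other nuclear receptors), TGACG (half-site of the cyclic AMP response element), TTGCNNAA (C/EBP type), CACGTG (E-box) or GGGCGG (Sp1 type).
Pnpla2: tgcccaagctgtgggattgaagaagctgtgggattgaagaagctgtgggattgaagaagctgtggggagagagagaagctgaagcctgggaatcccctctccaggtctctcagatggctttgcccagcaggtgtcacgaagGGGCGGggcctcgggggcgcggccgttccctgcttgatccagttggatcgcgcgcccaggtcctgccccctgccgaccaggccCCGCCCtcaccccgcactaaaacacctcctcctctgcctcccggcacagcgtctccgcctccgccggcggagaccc
Plin1: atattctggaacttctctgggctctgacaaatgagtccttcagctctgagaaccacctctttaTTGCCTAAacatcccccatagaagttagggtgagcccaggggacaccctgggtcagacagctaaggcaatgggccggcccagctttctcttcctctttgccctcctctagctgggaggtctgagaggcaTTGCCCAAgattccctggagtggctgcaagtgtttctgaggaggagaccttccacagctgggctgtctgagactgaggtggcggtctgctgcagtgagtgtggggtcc
Abhd5: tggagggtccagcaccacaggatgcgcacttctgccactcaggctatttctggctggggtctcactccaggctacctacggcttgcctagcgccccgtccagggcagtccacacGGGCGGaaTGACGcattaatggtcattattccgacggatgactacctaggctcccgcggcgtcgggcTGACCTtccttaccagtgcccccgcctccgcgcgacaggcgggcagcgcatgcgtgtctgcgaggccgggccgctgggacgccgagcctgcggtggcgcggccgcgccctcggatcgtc
The Pnpla2 window held GGGCGG at 2 places, a motif found in 35.7% of all 32851 windows of this length. The Plin1 window held TTGCNNAA at 2 places, which occurs in 10.8% of windows. The Abhd5 window held 1 match each to AGGTCA (16.3% of windows), TGACG (20.8%) and GGGCGG, none of them overlapping. CACGTG, in 7.15% of windows, had no match in the 3 windows. The direct repeat of AGGTCA with 1 base between the copies (0.0396% of windows) and the full TGACGTCA element (1.79%), which contains TGACG, had no match in the 10 windows of the 7 lipolysis genes listed. A match is a run of letters and not a measured site, and no binding was assayed in these libraries. Adrb3 and Pde3b had no entry in the table of windows.

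Adrb3 (ENSMUSG00000031489) encodes the β3-adrenergic receptor, through which catecholamines start lipolysis. It lies on the minus strand of chromosome 8 from 27225776 to 27250616. Scrambled control replicates 1, 2 and 3 had 400, 125 and 405 counts, or 64.0, 61.9 and 69.5 CPM. RBMS1 knockdown replicates 1, 2 and 3 had 247, 213 and 321 counts, or 35.4, 24.8 and 23.5 CPM. The highest knockdown library was below the lowest control by a wide margin, and the means were 65.1 ± 3.94 CPM (SD, n = 3) and 27.9 ± 6.53 CPM (SD, n = 3). Adrb3 fell by 1.22 on the log2 scale (SE 0.19, adjusted p = 0.0333 from edgeR), a level 2.34-fold lower than in the control. DESeq2 gave a log2 fold change of -1.22 (adjusted p = 5.04e-05) and limma-voom one of -1.27 (adjusted p = 0.0315). The log2 fold change ranged from -1.42 to -1.11 with each library left out in turn. The adjusted p was 0.132, 0.152 and 0.175 without scrambled control replicates 1, 2 and 3, 0.15 without RBMS1 knockdown replicate 2, 0.00488 without knockdown replicate 1 and 0.0572 without knockdown replicate 3, all from edgeR. Of all tested genes, 0.179%, 0.101% and 0.271% were called by edgeR when scrambled control replicate 1, 2 or 3 was left out. The share was 0.326% when knockdown replicate 2 and 0.997% when knockdown replicate 3 was left out.

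**Figure D2:**
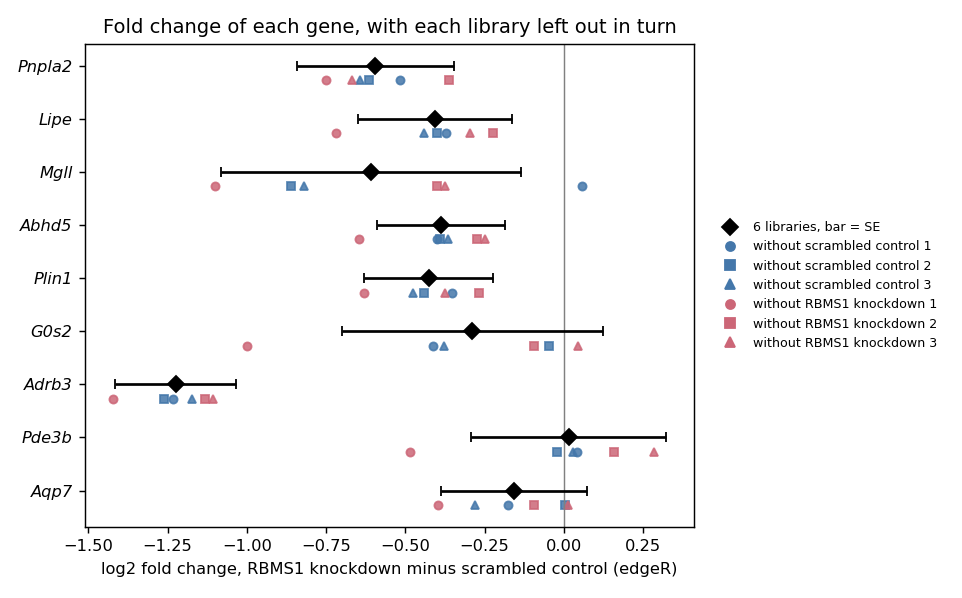
Log2 fold change of each gene, RBMS1 knockdown minus scrambled control, from edgeR on the 6 libraries (diamonds, bars are the SE) and with each library left out in turn (small symbols). The values for Adrb3 lie between -1.42 and -1.11, and leaving out RBMS1 knockdown replicate 1 moves each of the 9 genes to its lowest value.

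Genes on chromosome 8 were lower as a group in the knockdown libraries, and the position of Adrb3 bears on how its change is read. Its 624 tested genes had -0.38 as their median log2 fold change, with 90.1% below 0. The 7 tested neighbours of Adrb3 within 1.0 Mb were all below 0, with a median of -0.51 and a range of -1.22 (Rab11fip1) to -0.066 (Zfp703), and none of them was called by edgeR. Adrb3 was the 26th lowest of the 624 genes. When each library's median per chromosome was removed, its log2 fold change was -0.83 (SE 0.19) and it was not called (adjusted p = 0.154 from edgeR). The other lipolysis genes lie on chromosomes 1, 4, 6, 7 and 9, whose medians were between -0.025 and 0.25. Removal of the chromosome medians left the genes other than Adrb3 uncalled, with G0s2 at -0.54, Mgll at -0.78 and Pnpla2 at -0.54.

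**Figure D3:**
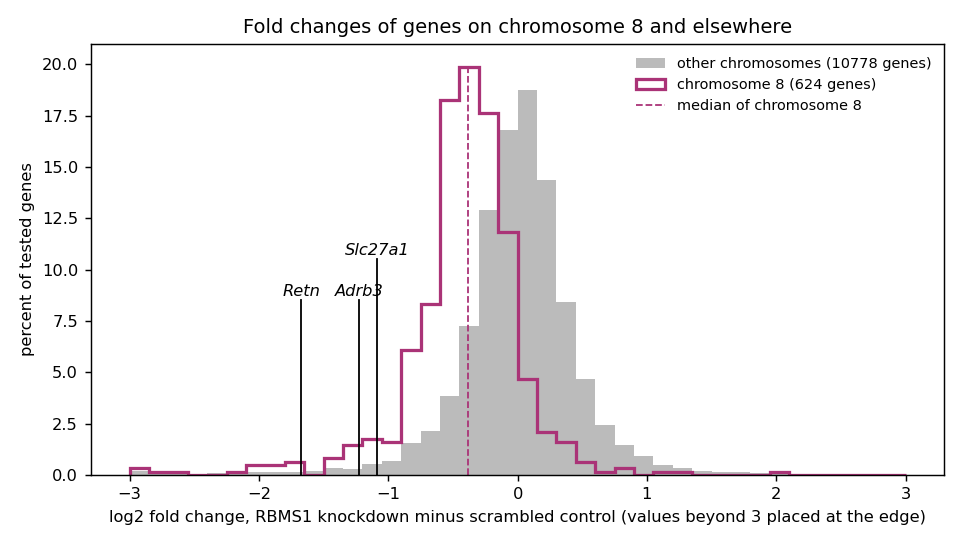
Distribution of log2 fold changes, RBMS1 knockdown minus scrambled control (horizontal axis), as percent of tested genes (vertical axis) for chromosome 8 (outline) and the other chromosomes (grey). The median of chromosome 8 is at -0.38 (dashed), and Adrb3 at -1.22, Slc27a1 at -1.09 and Retn at -1.67 lie in its lower tail.

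Pde3b (ENSMUSG00000030671, chromosome 7, 114415281 to 114539251), the phosphodiesterase through which insulin restrains lipolysis, had nearly the same mean in the groups. Its levels were 272, 251.5 and 269 CPM in the controls and 426, 216 and 160 CPM in the knockdown libraries. The controls were close together, whereas the knockdown libraries lay on either side of them. The SD was 11.3 CPM in the control and 140 CPM in the knockdown (n = 3 each), and the log2 fold change was 0.015 (SE 0.31, adjusted p = 0.99 from edgeR). Aqp7 (ENSMUSG00000028427, chromosome 4, 41033074 to 41048139) encodes the aquaglyceroporin by which glycerol leaves the adipocyte. It had 57.1, 72.3 and 48.6 CPM in the controls and 69.8, 49.3 and 40.1 CPM in the knockdown libraries, which overlapped (log2 fold change -0.16, SE 0.23, adjusted p = 0.836 from edgeR).

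The knockdown libraries differed among themselves in a like way for all 9 genes. RBMS1 knockdown replicate 1 was the highest of the 3 for 9 of 9 genes, as it was for 37.3% of all tested genes. It exceeded the mean of replicates 2 and 3 by 0.45 to 1.55 on the log2 scale (median 0.69), where the median over all tested genes was -0.012. For 6 of the 9 genes, replicates 2 and 3 were below all controls and replicate 1 was not, a pattern found in 8.09% of all tested genes. The coefficient of variation was larger in the knockdown than in the control for 8 of the 9 genes, with medians of 29.4% and 8.15%, and for 52.3% of all tested genes. Knockdown replicate 1 also had the lowest Rbms1 level of the 6 libraries. Without knockdown replicate 1, 5 of the 9 genes were called as lower by edgeR, where 3.63% of the tested genes were called as lower and 5.94% in either direction. These were Adrb3, Lipe (log2 fold change -0.72, adjusted p = 0.0474), Abhd5 (-0.65, 0.0426), Plin1 (-0.63, 0.0719) and G0s2 (-0.9998, 0.0579), while Pnpla2 had -0.75 at an adjusted p of 0.121 from the same edgeR test. Leaving out knockdown replicate 2 or 3 moved the values of these 5 genes the other way. Lipe was at -0.22 and Plin1 at -0.27 without replicate 2, and Abhd5 was at -0.25 without replicate 3, none of them called by edgeR. Pnpla2, at -0.59 with all libraries, moved to -0.36 without replicate 2 but to -0.67 without replicate 3, the same way as without replicate 1.

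Markers of the differentiated state moved with the same library. The 10 adipocyte markers summed to 21297 to 24650 CPM in the controls and to 20751, 11533 and 13644 CPM in RBMS1 knockdown replicates 1, 2 and 3. Their median log2 fold change was -0.34 with 9 of 10 below 0, and 1 of 10 was called. It was Retn (resistin), named here after its values were seen, which also lies on chromosome 8 (log2 fold change -1.67, adjusted p = 0.0967 from edgeR, called in 8 of 19 alternatives). The 10 preadipocyte and fibroblast markers summed to 7103 to 7969 CPM in the controls and to 3433, 7580 and 6853 CPM in knockdown replicates 1, 2 and 3, and none of the 9 tested was called by edgeR (2 at an unadjusted p under 0.05). Lpl, a gene on chromosome 8 that is also in a pathway list, made up 40.9% to 58.7% of the adipocyte sum. Without Lpl the sum was 9053, 10657 and 10174 CPM in the controls and 10569, 6199 and 8062 CPM in knockdown replicates 1, 2 and 3. The high level of the lipolysis genes in knockdown replicate 1 thus went with the highest adipocyte marker sum of the knockdown libraries, which was below all controls with Lpl and within their range without it, and with the lowest preadipocyte marker sum of the 6 libraries, and the part of these differences in the results was not tested. In such bulk libraries, fewer differentiated cells and less RNA per cell cannot be told apart. Macrophage markers summed to 1.599 to 2.48 CPM in the controls and 2.42 to 3.38 CPM in the knockdown, with Ptprc and Adgre1 at 0 in every library. Endothelial markers stayed at or under 1.98 CPM in the control and 1.43 CPM in the knockdown, with Kdr at 0, and of 5 skeletal muscle markers 4 were at 0 in every library. The cells are labelled as fibroblasts, and at this stage they carried adipocyte markers at high levels.

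Per kilobase of merged exon, the lipolysis genes covered a wide range of levels. In the control, Pnpla2 was the highest at 474 ± 41.2 CPM per kilobase (SD, n = 3), above 99.4% of the 11402 tested genes with a length. It was followed by G0s2 at 227 ± 61.9, Lipe at 150 ± 7.28 and Plin1 at 127 ± 10.4, and the ranges of these 4 genes did not overlap. Abhd5 at 30.7 ± 0.810 and Pde3b at 29.0 ± 1.24 overlapped, as did Aqp7 at 20.97 ± 4.25 and Adrb3 at 19.3 ± 1.17. Mgll was the lowest at 1.84 ± 1.14, above 22.5% of tested genes only. In the knockdown, the order was the same except that Pde3b (29.3 ± 15.4) came before Abhd5 (23.4 ± 6.90), and the ranges of Pnpla2, G0s2, Lipe and Plin1 overlapped from each gene to the next. Adrb3, at 8.27 ± 1.93 CPM per kilobase, no longer overlapped with Aqp7 at 18.8 ± 5.38. These levels rest on merged exon lengths, since the isoforms used are not resolved in the table.

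Ratios of estimated counts within a library do not depend on how libraries are scaled, and 7 were set between genes that act together. The smallest p of an exact permutation test of 3 against 3 libraries is 0.1. The ratio of Pde3b to Adrb3, the brake on cyclic AMP against its receptor, was 4.26, 4.05 and 3.87 in the controls and 11.998, 8.69 and 6.79 in the knockdown libraries. Each knockdown library was above each control, a mean ratio 2.20-fold higher (exact permutation p = 0.1, two-sided, 0.7 adjusted over the 7 ratios). The ratio of the inhibitor G0s2 to its target Pnpla2 was 0.103, 0.186 and 0.129 in the controls and 0.249, 0.184 and 0.0754 in the knockdown libraries, which overlapped. The co-activator Abhd5 relative to Pnpla2 was 0.113 to 0.141 in the controls and 0.107 to 0.187 in the knockdown. Lipe relative to Pnpla2 was 0.587 to 0.642 in the controls and 0.54 to 0.808 in the knockdown. Plin1 relative to Abhd5 had about the same range in the groups, 2.93 to 3.62 in the controls and 2.91 to 3.65 in the knockdown. The ratios other than Pde3b to Adrb3 had exact permutation p of 0.3 to 0.9 and differences in mean log2 ratio between -0.059 and 0.27.

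Each gene was also set against Adipoq, the gene for adiponectin, a secreted adipocyte marker that had a log2 fold change of -0.24 (SE 0.33, adjusted p = 0.815 from edgeR). Relative to Adipoq, Adrb3 had ratios of 0.0297, 0.0295 and 0.0263 in the controls and 0.0143, 0.0236 and 0.0103 in the knockdown libraries. The groups did not overlap, and the mean ratio was 1.88-fold lower in the knockdown (exact permutation p = 0.1, two-sided, 0.8 adjusted over the 9 ratios). Pnpla2 relative to Adipoq was 0.728, 0.662 and 0.503 in the controls and 0.464, 0.606 and 0.459 in the knockdown libraries, which overlapped (exact permutation p = 0.2). The other 7 genes had differences in log2 ratio to Adipoq between -0.19 and 0.22, with exact permutation p of 0.7 or 0.8 and overlapping groups.

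**Figure D4:**
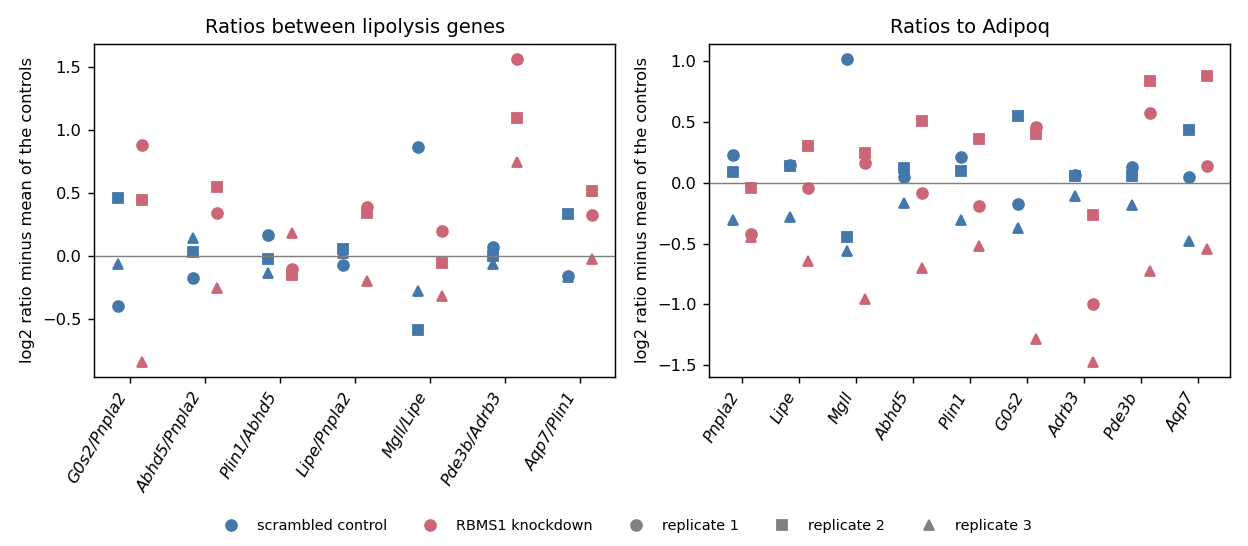
Log2 ratios of estimated counts within each library, minus the mean of the 3 controls (vertical axes), for 7 pairs of lipolysis genes (left) and for each gene relative to Adipoq (right), 1 point per library. The 3 knockdown libraries are apart from the 3 controls for Pde3b/Adrb3, with a mean difference of 1.14, and for Adrb3 relative to Adipoq, with one of -0.91.

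Among themselves, Lipe and Plin1 had the most similar profiles (Pearson's r of log2 CPM 0.976 over 6 libraries), followed by Lipe and Abhd5 (0.958) and G0s2 and Aqp7 (0.941), and the lowest r was that of Pnpla2 and Pde3b (0.326). Over all tested genes, the nearest profile to Adrb3 was that of Gstk1 (r = 0.999), a mitochondrial and peroxisomal glutathione transferase gene, which had a log2 fold change of -2.15 (adjusted p = 0.0229 from edgeR). The nearest profile to Lipe was that of Gm2a (r = 0.998), to Pnpla2 that of Cby1 (0.993) and to Abhd5 that of Trmt2b (0.999). Plin1 was nearest to Gm16163 (0.997), G0s2 to Sft2d3 (0.995), Mgll to Lmo4 (0.993) and Aqp7 to 9330159M07Rik (0.994). With 6 libraries, 15 to 107 genes had an r over 0.95 with any one of these genes.

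The rest of the pathway was described with 5 lists of genes, of which 78 were tested and 1 was called, or 1.28% against 1.22% of all tested genes. Of 16 genes for other adrenergic receptors, G proteins and adenylyl cyclases, 7 were below 0 (median log2 fold change 0.059), and none was called by edgeR, DESeq2 or limma-voom or had an unadjusted p under 0.05. Adrb1 did not pass the filter, with 26 counts over the 6 libraries. Gnai2, for an inhibitory G protein subunit, had a log2 fold change of 0.28 (adjusted p = 0.554 from edgeR).

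Among 20 genes for protein kinase A, its anchors and phosphodiesterases, 14 were below 0 (median -0.093), none was called by edgeR or limma-voom, 3 had an unadjusted p under 0.05, and DESeq2 called Pkia. Pkia and Pkig encode peptide inhibitors of protein kinase A. Pkia had 5.12, 3.47 and 5.32 CPM in the controls and 5.74, 18.2 and 21.2 CPM in the knockdown libraries, each above each control (log2 fold change 1.66, SE 0.45, adjusted p = 0.158 from edgeR). Pkig had 11.03, 8.42 and 8.41 CPM in the controls and 16.5, 12.5 and 17.5 CPM in the knockdown libraries, again without overlap (log2 fold change 0.73, SE 0.24, adjusted p = 0.235 from edgeR). The 10 genes for antilipolytic and natriuretic peptide receptors had a median of -0.19, with none called by edgeR, DESeq2 or limma-voom and 2 at an unadjusted p under 0.05. Npr1, the natriuretic peptide receptor that forms cyclic GMP, had 33, 9 and 34 counts in the controls and 10, 24 and 25 counts in the larger knockdown libraries (log2 fold change -1.37, SE 0.39, adjusted p = 0.179 from edgeR). Npr3, the clearance receptor of the same peptides, had a log2 fold change of 0.60 (SE 0.22, adjusted p = 0.313 from edgeR).

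Of 17 other lipase and glyceride hydrolase genes, 13 were below 0 (median -0.22). None was called by edgeR, with 3 at an unadjusted p under 0.05, while DESeq2 called Pnpla3 and Lpl and limma-voom called Pnpla3. Pnpla3, a close relative of Pnpla2, had 79.5, 99.01 and 72.1 CPM in the controls and 42.6, 15.6 and 9.45 CPM in the knockdown libraries (log2 fold change -1.89, SE 0.46, adjusted p = 0.13 from edgeR). Ces2g, a carboxylesterase gene on chromosome 8, had a log2 fold change of -2.02 (SE 0.59, adjusted p = 0.192 from edgeR) on 19, 9 and 17 counts in the controls and 2, 11 and 11 counts in the knockdown libraries. Of 15 genes for fatty acid and glycerol handling, 10 were below 0 (median -0.17), 5 had an unadjusted p under 0.05, and Slc27a1 was called by edgeR, DESeq2 and limma-voom, while DESeq2 also called Cd36 and Acsl1. Acsl1, for a long-chain acyl-CoA synthetase, lies on chromosome 8 and had a log2 fold change of -0.82 (adjusted p = 0.0553) by DESeq2 and of -0.83 (SE 0.32, adjusted p = 0.324) by edgeR. Slc27a1 encodes the fatty acid transport protein FATP1 and lies on chromosome 8 like Adrb3. It had 90.5, 85.2 and 76.7 CPM in the controls and 35.7, 37.4 and 45.5 CPM in the knockdown libraries, so that it fell by 1.09 on the log2 scale (SE 0.16, adjusted p = 0.0333 from edgeR). With chromosome medians removed its log2 fold change was -0.70 (adjusted p = 0.154 from edgeR), and the adjusted p was 0.132, 0.148 and 0.1002 without scrambled control replicates 1, 2 and 3, 0.134 without RBMS1 knockdown replicate 2, 0.274 with library sizes alone and 0.111 with the replicate block, so that the call was lost in each of these fits. The log2 fold change of Slc27a1 was -1.20 to -1.01 with each library left out, -1.09 with the replicate block and -0.70 with library sizes alone. Cd36, a fatty acid translocase gene on chromosome 5, had 786, 665 and 612 CPM in the controls and 1295, 898 and 1201 CPM in the knockdown libraries, each above each control (log2 fold change 0.72, SE 0.21, adjusted p = 0.183 from edgeR, and called by DESeq2). Without RBMS1 knockdown replicate 1, edgeR called 13 genes of the 5 lists in place of 1, where 5.94% of all tested genes were called. Pkia rose by 2.05 on the log2 scale and the other 12 fell, among them Slc27a1 and Pnpla3. Named after their values were seen, the others included Prkaca, for a catalytic subunit of protein kinase A (log2 fold change -0.95, adjusted p = 0.0183 from edgeR), Dgat2, for an enzyme of triglyceride synthesis (-1.96, 0.00241), and Hcar2, for the antilipolytic receptor of hydroxybutyrate (-1.59, 0.0186).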

How the data were processed

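Ribosomal RNA-depleted stranded libraries of 3 scrambled control and 3 RBMS1 knockdown cultures were sequenced. The authors trimmed reads with Trim Galore 0.6.7, used STAR 2.7.10a for alignment to GRCm38 and deposited estimated counts per gene from Salmon 1.9.0, without normalization. The annotation release is not given in the sources used here. Between 3.97% and 7.78% of values per library differed from a whole number by more than 1.0e-06, and the values were rounded. Total counts ranged from 3142695 to 11073098. After filterByExpr and TMM scaling, edgeR 4.0.16 (R 4.3.3) was used for the quasi-likelihood F test (glmQLFit and glmQLFTest) with condition as the only term, and p-values were adjusted over 11440 genes by the Benjamini-Hochberg method. All 9 genes were reported with the 5 pathway lists' called genes, the 2 smallest p of each list, Rbms1, Adipoq and the nearest profile of each gene. Some genes that this rule selects are not reported here. The genes and lists were chosen with earlier results of these data known. Ratios, with 0.5 added to each count, were tested by exact permutation (scipy 1.17.1). Positions and exon lengths came from GENCODE M21 (GRCm38). The alternatives used DESeq2 1.42.0, limma-voom (limma 3.58.1), other scalings, filters and estimates, removal of chromosome medians (chromosomes with at least 50 tested genes) and of GC and length trends (loess, span 0.3), a replicate block and each library left out. On simulated counts for 11440 genes in this comparison, 74.5% of the 192 changed genes tested were recovered and 13.3% of 165 calls were false. The recovery is a single value over these 192 genes. Recovery at log2 fold changes as small as those of the uncalled lipolysis genes (-0.61 to 0.015) was not tested. The labels call the cultures replicates, and the study calls them biological replicates and states for its experiments in general that they were repeated independently. Whether each library is such a repeat is not given in the sources used here, so the p-values measure the spread between these cultures.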

Additional observations from a re-analysis of the deposited data

How the results depend on the processing

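Of 19 alternatives, 12 kept Adrb3 called, and its log2 fold change was below 0 in all 19 (-1.42 to -0.83). The number of the 9 lipolysis genes called, 1, became 0 with library sizes alone, with chromosome medians removed and with the replicate block, and ranged from 0 to 5 with each library left out. With library sizes alone, which raised the median of all genes by 0.368, Adrb3 was at -0.86 (adjusted p = 0.22 from edgeR), or -1.23 relative to that shift. The 140 calls over all tested genes (104 lower, 36 higher) became 126 with library sizes alone (42 lower, 84 higher), 430 with DESeq2, 268 without a filter, 73 with chromosome medians removed and 12 to 696 with each library left out. The 1 call in the pathway lists became 6 with DESeq2, 2 with limma-voom, 3 without a filter, 0 with chromosome medians removed and 0 to 13 with each library left out. Of the lipolysis genes, G0s2, Aqp7, Pde3b and Mgll changed sign under some alternatives. G0s2 and Aqp7 were at 0.13 and 0.25 with library sizes alone, or -0.23 and -0.12 relative to the shift. Pde3b was at -0.079 by limma-voom, -0.046 with the GC and length trend removed and between -0.49 and 0.28 with each library left out. In the same way G0s2 ranged from -0.9998 to 0.044, Mgll from -1.10 to 0.058 and Aqp7 from -0.40 to 0.015, with Aqp7 at 0.0025 without scrambled control replicate 2, and Pde3b at -0.021 there. None of these values was called except G0s2 at its lowest. Where 1 culture was left out, fewer samples were tested, and the causes of the other differences were not tested.

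No pairing of the cultures by replicate number was seen in the values. Whether cultures of the same number were handled together is not given in the sources used here, and the correlations that follow cannot show it. Deviations from the group means correlated at -0.144, 0.0785 and -0.0284 for replicates 1, 2 and 3, and the cultures did not all correlate best with their own number. With the replicate block, 39 genes were called over all tested genes, 0 of the lipolysis genes (Adrb3 at -1.24, adjusted p = 0.105 from edgeR), 0 in the pathway lists, and Pde3b was at -0.11. Of the 16 log2 ratios (7 between lipolysis genes and 9 to Adipoq), 10 changed sign when 1 library was left out. Their differences ranged from -0.20 to 0.66 for G0s2 to Pnpla2, -0.13 to 0.056 for Plin1 to Abhd5 and -0.35 to 0.37 for Mgll to Lipe. Relative to Adipoq they ranged from -0.34 to 0.13 for Lipe, -0.47 to 0.32 for Mgll, -0.39 to 0.21 for Abhd5, -0.36 to 0.082 for Plin1, -0.44 to 0.43 for G0s2, -0.079 to 0.70 for Pde3b and -0.21 to 0.50 for Aqp7. The other 6 kept their sign with each library left out, Pde3b to Adrb3 at 0.92 to 1.33 and Adrb3 to Adipoq at -1.23 to -0.63, and no ratio changed sign with another pseudocount or rounded counts. The replicate block leaves a mean difference over 3 balanced pairs as it is.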
